A study of Sus scrofa with 2 samples.

Results

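Small RNA libraries came from the whole testes of a white Chinese pig breed, Junmu-1, at 30 days of age, when the boars were sexually immature, and at 180 days, when they were mature. Each age is 1 library made from the pooled RNA of 3 boars, so no value here has a replicate spread, and all intervals are exact Clopper-Pearson 95% intervals that cover counting error only. The subject is the sequence tags that read through a whole listed miRNA sequence and carried 1 to 3 further bases at the 3′ end. A tag is a distinct sequence with its read count. Tags of at most 24 bases were taken, the listed sequence (the entry) being the one the authors matched to the tag. The rule found 1851 distinct tags out of 93229. The 30-day list held 1685 of them among 82288 tags, and the 180-day list held 988 among 28643. Both lists shared 822 of these tags, 863 were in the 30-day list alone and 166 in the 180-day list alone. The 30-day list was the deeper one and the same split was not made over all tags, so these counts are not read as a difference of age. The tags of the rule were named for 347 miRNAs, from 409 entries of 28 species prefixes.

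A mature miRNA is cut from a hairpin precursor by Dicer, and its 3′ end is less fixed than its 5′ end. Further bases at the 3′ end can come from a shifted cut, in which case they are those of the precursor, or can be put on later by terminal nucleotidyl transferases, enzymes that add mainly uridines or adenosines without a template. The seed, which directs the miRNA to its targets, lies at the 5′ end and is not altered by such bases. Added uridine has been described for let-7 and miR-26, and added adenosine for miR-122 and miR-21. In the tags T stands for the U of the RNA. No hairpin or genome sequence was used here, so added bases from the precursor and bases without a template cannot be told apart in what follows.

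The 10 tags with the highest mean level over both libraries are shown first, since they carried 52.2% of all added-base reads at 30 days and 50.3% at 180 days. Small letters are the listed miRNA and capitals are the added bases.
let-7b plus T: tgaggtagtaggttgtgtggttT
let-7b plus A: tgaggtagtaggttgtgtggttA
let-7 plus A: tgaggtagtaggttgtatagttA
let-7 plus T: tgaggtagtaggttgtatagttT
let-7f plus A: tgaggtagtagattgtatagttA
let-7f plus T: tgaggtagtagattgtatagttT
miR-99a plus A: aacccgtagatccgatcttgtgA
miR-140 plus A: accacagggtagaaccacggaA
miR-140 plus T: accacagggtagaaccacggaT
miR-199a-3p plus A: acagtagtctgcacattggttaA

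The name let-7 without a letter is the nematode entry, whose sequence is that of mammalian let-7a. The miR-140 entry is that of the dog. The next set shows longer additions, the less common bases G and C, and 2 germ cell miRNAs.
let-7 plus AA: tgaggtagtaggttgtatagttAA
let-7b plus AT: tgaggtagtaggttgtgtggttAT
let-7b plus TT: tgaggtagtaggttgtgtggttTT
miR-140 plus AA: accacagggtagaaccacggaAA
miR-140 plus AAA: accacagggtagaaccacggaAAA
let-7e plus G: tgaggtaggaggttgtatagttG
miR-221* plus C: acctggcatacaatgtagatttC
miR-25* plus CT: aggcggagacttgggcaattgCT
miR-34c plus A: aggcagtgtagttagctgattgcA
miR-449a plus A: tggcagtgtattgttagctggtA

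Of the 7525725 miRNA-matched reads of the 30-day library, 754246 carried added bases, which is 10.02% (10.001 to 10.044). Of the 852209 reads of the 180-day library, 88680 did so, which is 10.41% (10.341 to 10.471). About 1 read in 10 therefore ended beyond its listed miRNA at either age. Tags identical to the entry made up 63.6% of reads at 30 days and 59.4% at 180 days, so that there were 15.8 and 17.5 added-base reads per 100 exact ones. The 2 libraries hold different mixtures of miRNAs. When each miRNA's own share was applied to a common mixture, the mean of both libraries over the 713 miRNAs with reads in each, the shares were 9.39% at 30 days and 11.1% at 180 days. The authors named each tag for 1 entry, and some tags that begin with a full listed entry were named for another. Where values with such tags counted under the longest listed entry that begins them are given, they are called values by leading entry. These values also count as added some bases that only continue the sequence into another listed entry, or that belong to a related miRNA. In whole tissue a smaller number of cells of a type and less RNA per cell cannot be told apart. Marker miRNAs were checked against the tissue label: miR-202-5p, found in gonadal soma, stood at 53505 and 90885 RPM (reads per 1000000 miRNA-matched reads) at 30 and 180 days, and miR-202-3p at 3093 and 1943 RPM. Smooth muscle was represented by miR-143, at 5342 and 14731 RPM, and miR-145, at 658 and 2444 RPM. Of the striated muscle markers, miR-1 stood at 1305 and 6399 RPM, miR-206 at 121 and 123 RPM and miR-133a at 2.79 and 4.69 RPM. For red blood cells, miR-451 stood at 1535 and 3774 RPM and miR-144 at 42.3 and 35.2 RPM. Liver miR-122 stood at 21.3 and 217 RPM and neuronal miR-124 at 8.11 and 11.7 RPM. The meiotic germ cell miRNA miR-34c went from 5.98 to 22617 RPM.

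Under the authors' naming, nearly all added bases were A or T. Among reads with added bases, a single A made up 51.2% (51.1 to 51.3) at 30 days and 48.2% (47.9 to 48.5) at 180 days. A single T made up 35.7% (35.6 to 35.8) and 36.5% (36.2 to 36.8). Single G was at 2.61% and 1.82%, and single C at 0.539% and 0.50%. Strings of only A and T held 95.5% and 96.4% of the added-base reads, and 68 of the 84 strings possible with 1 to 3 bases were seen. By leading entry, only A and T were added in 83.0% of the added-base reads at both ages, a single C made up 8.97% and 9.56%, and a single G 3.50% and 3.20%. Of the 103254 and 13273 single C reads, 78928 and 10069 were the dog miR-140 entry plus C. That C is the next base of listed miR-140* entries, so the lower share of A and T is partly set by the counting. The lead of A was smaller with every miRNA weighted equally, over those with at least 20 added-base reads: single A was then at 42.2% and single T at 37.7% at 30 days, and at 44.6% and 35.4% at 180 days.

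Longer additions took a larger share of the added-base reads at 180 days. The share of additions of 2 bases went from 9.56% (9.49 to 9.62) to 11.8% (11.6 to 12.1) and those of 3 bases from 0.391% (0.377 to 0.405) to 1.14% (1.08 to 1.22). Few miRNAs carried the additions of 3 bases. Of these 2950 and 1015 reads, 456 and 302 were miR-151-3p plus TAT. Among miRNAs with at least 200 reads in each library, only 6 had at least 20 such reads over both. Over a common mixture of miRNAs, the share of all reads with 1 added base went from 8.45% to 9.69%, a ratio of 1.15. The share with 2 bases went from 0.890% to 1.33%, a ratio of 1.49, and that with 3 bases from 0.0491% to 0.0987%, a ratio of 2.01. By leading entry these ratios were 1.10, 1.37 and 1.57. With 1 library per age, the ratio of longer additions cannot be told apart from a difference between library preparations. The limit of 24 bases also matters here, because an entry of 22 bases can gain at most 2 and one of 23 bases at most 1.

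AA was the leading addition of 2 bases, with 26342 reads at 30 days and 5051 at 180 days. It held 36.5% and 48.1% of the additions of 2 bases. AT followed with 19570 and 2326 reads, TT with 12227 and 1531, and TA with 4652 and 695. A first A or T was followed mostly by the same base. After A, the second base was A in 54.2% of the 30-day reads (53.8 to 54.6) and in 65.4% of the 180-day reads (64.3 to 66.5). After T, it was T in 70.3% (69.6 to 70.9) and 67.4% (65.4 to 69.3). After C, it was T in 89.7% and 82.1%, and after G it was A in 49.5% and 53.2% and T in 47.2% and 42.6%. Most of the CT reads, 2028 of 2458 at 30 days and 80 of 128 at 180 days, were those of miR-25* alone.

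The let-7 family, which restrains growth genes and marks differentiated cells, supplied 51.4% of the added-base reads at 30 days and 47.4% at 180 days. Its 8 members with at least 200 reads in each library are let-7, let-7b, let-7c, let-7d, let-7e, let-7f, let-7g and let-7i. The share of reads with added bases was 13.6% (13.6 to 13.7) and 16.7% (16.6 to 16.9) over all 23 names of the family, and the median over the 8 members was 13.4% and 17.3%. The intervals lay apart, with the 180-day share higher, in 7 of the 8. The exception was let-7e, at 23.8% (23.6 to 24.1) and 24% (22.9 to 25.1). No member differed by as much as 2-fold. For comparison, 98 miRNAs, let-7 included, had at least 200 reads in each library and an added-base read. Of these, 29 were higher at 180 days with intervals apart and 10 were lower.

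The members kept their own pattern of bases, although their 3′ ends are nearly the same. In let-7b, T led: 65318 reads at 30 days and 5536 at 180 days were let-7b plus T, which is 12.2% and 15.4% of its reads, against 7.36% and 6.78% for plus A. In let-7f, A led, with 10.5% and 12.3% for plus A (39683 and 6693 reads) against 5.70% and 6.58% for plus T. In let-7, A led by less, with 4.75% and 6.41% for plus A and 3.81% and 5.02% for plus T. Plus G made up 5.14% and 5.07% of the let-7e reads, and between 0.163% and 0.615% in the other 7 members in both libraries. By leading entry let-7i also had a high plus G share, with 1146 and 110 reads, 6.91% and 6.15%. These values are for tags that differ by 1 base, so a read error in one can count as another.

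The string AA was higher at 180 days, with intervals apart, in all 8 of these let-7 members. In let-7 it had 1783 reads at 30 days and 842 at 180 days, although the 30-day library held more let-7 reads, and its share went from 0.228% (0.218 to 0.239) to 1.06% (0.987 to 1.13). In let-7g the AA share went from 0.112% (96 reads) to 0.661% (68 reads), a ratio of 5.91. In let-7i it went from 0.290% to 1.29%, and in let-7f from 0.383% to 1.14%. The smallest ratio was in let-7b, where AA went from 0.876% to 1.11%, a ratio of 1.27. Of the single bases, T was higher with intervals apart in 7 members, A in 5 and lower in 1 (let-7b), and G was lower in 3 and higher in none. The other miRNAs counted had at least 200 reads in each library and 20 reads of the string over both. Among them T was higher with intervals apart in 10 of 65 and lower in 8. A was higher in 11 of 75 and lower in 6, and G was lower in 1 of 20 and higher in 0. Outside let-7, 27 miRNAs had at least 20 AA reads over both libraries: 9 had a higher AA share at 180 days with intervals apart, 1 a lower one, and the median ratio was 1.60, against 2.64 for let-7. By leading entry AA was higher with intervals apart in 7 of the 8 let-7 members, and let-7e, at 1.45% and 1.67%, was the other one. The difference between let-7 and other miRNAs was not tested.

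Of the other abundant members, miR-99a, which shares a cluster with let-7c and acts on mTOR signalling, gained almost only A. It had 66567 reads of the plus A tag at 30 days and 4927 at 180 days, which is 10.5% and 10.6% of its reads, and no plus T read counted under its name. That zero comes from the naming: the plus T tag of its sequence, with 32051 and 1855 reads, is listed under miR-100. The dog miR-140 entry, from a miRNA best known in cartilage, gained A, T and AA under its own name. Its plus A tag had 31850 and 5114 reads (12.5% and 15.7%), plus T had 24700 and 4379 (9.72% and 13.4%) and plus AA had 8594 and 1621 (3.38% and 4.97%). The share of miR-140 reads with any added bases was 30.3% (30.1 to 30.5) at 30 days and 39.4% (38.9 to 40.0) at 180 days. Its most read further base was C, with 78928 and 10069 reads listed under miR-140*. C is the base that follows this sequence in listed miR-140* entries. By leading entry, which counts these reads as added, the miR-140 share was 53.8% and 58.4%, a ratio of 1.09. For miR-199a-3p, a mesenchymal miRNA, plus A had 38042 and 2813 reads, 8.33% at 30 days and 8.35% at 180 days, and the share with any added bases was 11.7% and 11.6%.

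C was the rarest single base under the authors' naming, and 2 of its 3 leading tags came from star strands, the minor products of their hairpins. miR-221* plus C had 688 reads at 30 days and 45 at 180 days, 16.3% and 13.7% of the reads of miR-221*. For miR-99a plus C there were 485 and 28 reads, which is 0.0768% and 0.0602%. For miR-25*, plus C had 393 and 35 reads and plus CT had 2028 and 80 reads, so that CT stood at 68.6% (66.9 to 70.2) and 47.3% (39.6 to 55.1) of its reads. miR-25* had added bases on 85.8% of 2958 reads at 30 days and on 69.2% of 169 reads at 180 days, so the listed entry was itself the rarer form at both ages.

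Additions of 3 bases were led by miR-151-3p, which lies in an intron of the focal adhesion kinase gene in mammals. Its addition TAT had 456 reads at 30 days and 302 at 180 days, 60.6 and 354 RPM, a ratio of 5.85 (5.04 to 6.78). Its AAA had 394 and 110 reads and its TAA 107 and 63. In the dog miR-140 entry AAA had 289 and 78 reads and AGA 342 and 64. Within miR-151-3p, TAT went from 4.03% (3.67 to 4.41) to 11.8% (10.5 to 13.1) of the reads while plus A went from 25.5% (24.7 to 26.3) to 17.9% (16.4 to 19.4). The total share of miR-151-3p with added bases was nearly level, at 66.1% (65.2 to 67.0) and 66.9% (65.0 to 68.7).

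Across miRNAs the share with added bases varied widely. Among the 121 miRNAs with at least 200 reads in each library, the median share was 2.67% at 30 days and 3.70% at 180 days, 35 were above 10% in both libraries and 39 were below 1% in both. The 2 libraries ranked the miRNAs alike, with Pearson's r = 0.966 and Spearman's rho = 0.968 over these 121 miRNAs, which share the naming of their entries. By leading entry the medians were 10.9% and 12.1%, 63 miRNAs were above 10% in both libraries and 18 below 1%. Of the 63 miRNAs with at least 1000 reads in each library, the 5 highest shares under the authors' naming were those of miR-151-3p, miR-195, miR-140, miR-320a and miR-28-3p. miR-195, of the cell-cycle restraining miR-15/16 family, was at 36.7% and 40.5%. miR-320a, which is made without Drosha, was at 27% and 27.1%, and miR-28-3p at 22.3% and 31.1%. By leading entry the 5 highest were miR-151-3p, miR-140, miR-152 at 46.9% and 34.7%, miR-222 at 37.5% and 44.0%, and miR-195.

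At the other end, 10 of the 63 had no added-base read in either library, among them miR-202-5p, miR-199, miR-30d, miR-202 and miR-30a-5p. For miR-202-5p this was 0 of 402661 and 0 of 77453 reads, and 3 reads would be 0.000745% and 0.00387%. Some of these zeros moved with the naming. The most read entries of miR-30d and miR-30a-5p have 24 bases, which leaves no room for a longer tag within the length limit. miR-30d also has shorter listed entries, which longer listed entries continue. miR-202-5p and miR-199 have a longer listed entry that continues their sequence, and the authors' alignment score takes 1 point for a mismatched base and 3 for an unmatched one, so their longer tags are named for that entry. By leading entry miR-202-5p had 2.04% and 1.68%, miR-199 8.68% and 10.7%, and miR-30d 3.46% and 3.89%. The other 7 of the 10 stayed at 0 by leading entry as well, among them miR-202, with 0 of 45259 and 0 of 3419 reads, miR-202-3p, miR-322, miR-506 and miR-509-3-5p. These zeros need not mean that no bases were added. The miR-202 entry of 20 bases did not reach 100 exact plus added reads in each library. In at least 1 library most miR-202 reads therefore did not hold the full entry. For miR-30a-5p, also among the 7, the length limit leaves no room.

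The naming moved the share of many miRNAs. Entries were split by whether another listed entry contains their last 15 bases followed by at least 1 more. Among entries with at least 100 exact plus added reads in each library, the 89 without such a continuation had a median of 14.9% of those reads with added bases at 30 days and 15.7% at 180 days, and the 66 with one had a median of 0. Tags that begin with a full listed entry and carry 1 to 3 more bases, but were named for another entry, took 5.28% of reads at 30 days and 5.89% at 180 days. With the tags of the rule they came to 15.3% and 16.3%. The largest was the dog miR-140 entry plus C, with 78928 and 10069 reads. Other large ones were miR-101 plus A, with 26137 and 3653 reads, miR-107 plus G, with 15567 and 2344, and miR-21 plus C, with 10605 and 1411. The authors named the miR-107 plus G tag for miR-103. For miR-140 and miR-21, C is the next base of other listed entries, so these tags may only continue the listed sequence.

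Among the entries without a continuation, the median share of exact plus added reads with added bases was 48.3% at 30 days and 55.7% at 180 days for the 7 entries of 21 bases and 30.9% and 40.7% for the 2 of 18 bases. It was 16.5% and 20.2% for the 55 of 22 bases, 6.85% and 10.7% for the 16 of 23 bases and 0 for the 9 of 24 bases. The length limit of the rule leaves room for 3 added bases only in entries of at most 21, so this order is partly set by the rule. Tags of 23 bases made up 79.1% of the added-base reads in the immature and 70.0% in the mature testis. By the last base of the entry, the medians ran from 12.1% (40 entries ending in T) to 21.1% (18 ending in G) at 30 days, and from 12.4% (9 ending in C) to 21.6% (G) at 180 days.

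The preference for A or T differed between miRNAs more than between ages. Among 70 miRNAs with at least 20 single A or T reads in each library, A exceeded T in 40 at 30 days and in 41 at 180 days, T exceeded A in 30 and 28, and 67 had the same leading base at both ages. By leading entry this held for 83 of 87 miRNAs. The share of A among single A and T reads correlated between the ages with Pearson's r = 0.973 and Spearman's rho = 0.970 over these 70 miRNAs, as a description. At one end stood miR-101, a regulator of the methyltransferase EZH2, with A in 98.0% and 99%, the red blood cell miRNA miR-451 with 97.5% at both ages, and miR-125b-5p with 95.7% and 96.3%. For miR-101 this depended on the naming. By leading entry it had 33783 single A and 6733 single T reads at 30 days, and 5102 and 622 at 180 days. At the other end stood miR-143, of smooth muscle, with A in 3.57% and 7.50%, miR-148b-3p with 7.01% and 6.12%, and miR-23b with 7.35% and 7.14%. The intervals lay apart in 14 miRNAs, in 7 with more A and in 7 with less A at 180 days. miR-744 was among them: its plus T share went from 32.6% (31.4 to 33.8) to 50.2% (46.0 to 54.4) and its plus A share from 10.6% (9.85 to 11.4) to 6.96% (5.00 to 9.40).

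Between the ages, few miRNAs changed their share by 2-fold. A miRNA was called when its shares differed by at least 2-fold in either direction and their intervals did not overlap. Of 98 miRNAs with an added-base read, 6 were called higher at 180 days (6.12%), 2 were called lower (2.04%) and 90 were neither. With no fold asked for, the intervals lay apart in 39, of which 29 were higher and 10 lower, and the median ratio over the 98 was 1.19. By leading entry 110 miRNAs had an added-base read, of which 4 were called higher and 3 lower, and the median ratio was 1.14. No p-value can be given with 1 library per age.

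Several calls rested on few reads or depended on the naming. miR-1274a and miR-1308, whose sequences are those of tRNA fragments, went from 0.0550% (1 read) to 2.38% (21 reads) and from 5.62% (135 reads) to 26.1% (104 reads). The miR-1308 ratio of 4.65 was 1.23 when only exact and added tags were counted. For miR-93, of the cell-cycle promoting miR-17 family, the share went from 1.46% (59 reads) to 6.38% (49 reads), but by leading entry it was 23% and 26.6%. miR-145, of smooth muscle, had 8 and 13 added-base reads, 0.162% and 0.624%, or 15.1% and 22.1% by leading entry, and its ratio of 3.86 was 1.46 with tags of any length. miR-101 had 8104 and 1510 reads, 2.55% (2.49 to 2.60) and 5.10% (4.85 to 5.36), or 12.5% and 18.3% by leading entry. For miR-1959 the shares were 0.524% and 1.08%, from 112 and 36 reads.

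Called lower were miR-361-5p, from 12.4% (213 reads) to 5.12% (11 reads), and miR-107, from 0.280% (227 reads) to 0.128% (13 reads). miR-107 lies in an intron of a pantothenate kinase gene. By leading entry it stood at 26.5% and 32.3%, but that value takes in tags the authors named for miR-103. Among them are the miR-107 entry plus G, with 15567 and 2344 reads, and plus GT, with 4833 and 993. The turned direction is therefore not one of miR-107 alone. Below 2-fold, but with intervals apart, the share of miR-191 went from 12.4% (12.2 to 12.6) to 19.0% (18.5 to 19.6). The shares of miR-16 and miR-23b moved the other way, from 21.3% to 18.0% and from 15.2% to 11.6%.

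The germ cell miRNAs miR-34c and miR-449a share a seed and are abundant in meiotic and later cells, and they were nearly absent at 30 days, with 45 and 19 reads in all. In the mature testis 1459 of 19274 miR-34c reads carried added bases, which is 7.57% (7.20 to 7.95), and plus A alone made up 6.62%. For miR-449a 951 of 6056 reads did so, 15.7% (14.8 to 16.6), with plus A at 10.8% and plus T at 2.92%. miR-34b-5p, from the miR-34c cluster, had no read at 30 days and 62 of 1773 with added bases at 180 days, 3.50% (2.69 to 4.46). The 30-day shares, from 3 reads of miR-34c and 2 of miR-449a, are too uncertain to compare.

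miRNAs known elsewhere for added bases gave mixed values. miR-26a, a differentiation-linked miRNA described as uridylated, had plus T at 8.08% and 6.42% and plus A at 5.85% and 6.12%. Its share with any added bases was 19.3% (19.0 to 19.6) at 30 days and 18.0% (17.2 to 18.8) at 180 days, but 23.8% and 25.5%, a ratio of 1.07, by leading entry. miR-26b was at 8.29% and 9.92%. miR-21, which promotes growth, had 1.45% and 1.14%, of which A was the main single base. By leading entry it had 20.9% and 24.8%, plus C led and the direction turned. That C is the next base of a longer listed miR-21 entry. miR-122 had no added-base read among 160 and 185 reads.

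In the remaining lists, values are medians of the compared members at 30 and 180 days, beside 2.67% and 3.70% over all 121 miRNAs. They were 10.8% and 10.9% for the 3 compared members of the miR-99/100 group, 3.36% and 2.75% for 3 of the miR-125/10 group and 2.0% and 3.05% for 3 of the miR-29 family. The miR-30 family (7) had medians of 0, and the miR-17 family (3) 1.46% and 1.92%, with miR-93 called higher. Medians were 9.91% and 13.4% in the miR-25/92 family (3), 1.77% and 2.88% in the miR-23/24/27 group (5) and 6.17% and 6.01% in the miR-15/16 family (6). The muscle list (6) had 1.59% and 1.37%, with miR-145 called higher, the gonadal and mesenchymal list (10) 2.11% and 1.97%, and the testis-rich miR-506 cluster (5) medians of 0. The list of miR-34 and miR-449 had no member with 200 reads at 30 days, the miR-26 list (2) stood at 13.8% and 14%, and the list of miR-122 and miR-21 held miR-21 alone. No member of a list other than miR-93 and miR-145 was called in either direction under the authors' naming. These medians and calls depend on the naming. Neither miR-93 nor miR-145 was called by leading entry. Instead miR-17, from 1.60% (15 reads) to 6.28% (14 reads), was called higher. miR-202*, from 0.553% (198 reads) to 0.263% (28 reads), was called lower. By leading entry the median over all 121 was 10.9% and 12.1%, that of the miR-23/24/27 group 19.4% and 17.8%, of the miR-15/16 family 25.1% and 23.8%, and of the miR-30 family 6.91% and 5.79%. The gonadal and mesenchymal list had 9.20% and 11.1%, the muscle list 8.06% and 7.54%, the miR-17 family 1.60% and 6.28%, the miR-26 list 18.3% and 21.7%, and let-7 13.8% and 17.7%.

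Tag by tag, the added forms were called about as often as the exact ones. Of the 501 tags with added bases and at least 20 reads over both libraries, 108 were called higher at 180 days, with an RPM ratio of 2 or more and its exact interval excluding 1, and 48 were called lower. Those shares, 21.6% and 9.58%, stand beside 17.1% higher and 9.34% lower over all 6888 listed tags with as many reads, and 22.1% and 11.3% over the 425 tags identical to an entry. The split depends on the scaling: with TMM factors, which shift all log2 ratios by −1.10, 6.39% of the 501 were higher and 40.3% lower. Relative to the level of its own miRNA, 8.2% of 500 tags were higher and 1.0% lower. By length, 53 of 297 tags with 1 added base, 43 of 177 with 2 and 12 of 27 with 3 were called higher in RPM, and 29, 19 and 0 were called lower.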

How the data were processed

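Per the labels' protocols, RNA of 3 boars per age was pooled, cut from a gel at 18 to 30 nucleotides, ligated to adapters and amplified with 15 PCR cycles; no molecular identifiers are named, so reads are not independent molecules. The authors deposited, for each library, raw read counts per tag with 1 matched miRNA entry from any species. They also deposited tag and entry lengths, matching bases and an alignment score, which on every row equalled 2 per match minus 1 per mismatch and 3 per unmatched base. The genome build, miRBase release and aligner were not given in the sources used here.

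Added-base tags were found by comparing tag and entry letters. A share is added-base reads over all reads of the miRNA name without its species prefix; RPM is reads per 1000000 listed reads. Shares and count ratios have exact Clopper-Pearson 95% intervals (scipy 1.17.1, pandas 2.3.3, Python 3.11.15); edgeR 4.0.16 in R 4.3.3 gave the TMM factors only. The scripts were tested on simulated data. Members, lists and rules were chosen with earlier results of these data known. Named tags and miRNAs were the 10 tags of highest mean RPM, the 3 leading miRNAs for each single base, the 5 highest and 5 lowest shares, up to 5 calls in each direction, up to 3 members of each list, and the 5 leading tags with 2 and with 3 added bases; of these, some are left to the counts. miR-101, miR-191, miR-744, miR-451, miR-148b-3p, miR-152, miR-222, let-7d, let-7g, let-7i and all values by leading entry were chosen after their values were seen.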

Additional observations from a re-analysis of the deposited data

Results flagged for a closer look

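Tags longer than 24 bases were outside the rule, yet some also held a full listed entry with 1 to 3 bases more. At 30 days 1036 such tags held 16269 reads, 0.216% (0.213 to 0.220) of the listed reads, and at 180 days 472 tags held 3325 reads, 0.390% (0.377 to 0.404). They were singled out because the main comparisons do not count them as added-base tags and both counts exceed the 3 reads that a count of 0 allows. Only the setting with tags of any length counts them as added. There are no control samples.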

How the results depend on the processing

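Values here pair 30 with 180 days. The share of reads with added bases, 10.0% and 10.4%, was 10.1% and 10.6% without tags of 1 read, 10.2% and 10.8% with tags of any length, 9.03% and 9.05% with exactly 1 added base, 13.6% and 14.9% of exact plus added tags, and 0.838% and 2.09% for entries with the pig prefix. The following settings were chosen after seeing the data: any listed entry that begins the tag (15.3% and 16.3%), the same miRNA mixture (9.39% and 11.1%), entries of 21 bases or less, and no fold. Single A was 50.3% and 46.7% with any length, 41.6% and 37.5% with the pig prefix, 56.8% and 55.4% of 1-base additions, 41.6% and 40.8% with any listed entry, 42.2% and 44.6% with miRNAs weighted equally, and 41.8% and 38.4% for entries of 21 bases or less. Single T was 35.9% at 30 days with any length, 55.1% and 62.5%, 39.7% and 41.9%, 33.5% and 31.8%, 37.7% and 35.4%, and 27.4% and 29.3% under the other settings in that order, so A led T in all but the pig prefix, where T led. Entries with the pig prefix held only 10626 and 1531 listed reads in all, so that setting rests on few added-base reads.

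Of the miRNAs called higher (6) and lower (2), there were 3 and 1 with at least 1000 reads, 13 and 4 at 1.5-fold, 29 and 10 with no fold, and 0 and 0 with the pig prefix, where 1 miRNA was left to compare. The lower count was 1 with exact plus added tags and 1 without tags of 1 read. Tags called higher (21.6% of 501) and lower (9.58%) were 6.39% and 40.3% with TMM, 6.39% and 42.7% with median-of-ratios scaling, 8.2% and 1.0% relative to their own miRNA, and 18.7% and 15.5% of the 252 with at least 100 reads. With any listed entry, 13 of the 98 miRNA ratios turned direction, 2 of them with intervals apart both ways: miR-107 (1.22) and miR-26a (1.07). The miR-107 ratio then takes in tags that the authors named for miR-103. miR-21 (1.19), miR-30a (1.14) and miR-143 (1.08) also turned. Fewer reads or tags remain under the stricter minimums and the pig prefix; for the other changes the cause was not tested. The comparison with hairpin bases was not run. No paired analysis was possible because each age has 1 library. The 180-day library is the shallower, and 3 reads in it are 3.52 RPM, against 0.399 RPM at 30 days.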
